A study of Arabidopsis thaliana with 6 samples.

Results

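The transcripts of 8 regulators of ground tissue patterning were examined in root tips of wild type and *an3* *Arabidopsis thaliana* seedlings. They are the GRAS family genes *SHR* (SHORTROOT, AT4G37650), *SCR* (SCARECROW, AT3G54220), *SCL3* (AT1G50420) and *SCL23* (AT5G41920), and the BIRD genes *JKD* (JACKDAW, AT5G03150), *MGP* (MAGPIE, AT1G03840), *NUC* (NUTCRACKER, AT5G44160) and *BIB* (AT3G45260). The members were chosen by their locus names, and each of the 8 had a row of its own among the 33201 rows of the deposited table. The wild type, Columbia (Col), was compared with the loss-of-function mutant *an3*, which lacks most transcript of the transcriptional co-activator ANGUSTIFOLIA 3. Both were seedlings of 5 days, grown upright on medium with sucrose and with no other treatment named, and RNA was taken from the last 5 mm or so of root tips, in 3 samples for each genotype. The *an3* line is used as previously described, and which allele it carries was not given in the sources used here. Root tips of *an3* were profiled in the study to search for repressors that act below AN3 in the division of the cortex endodermis initial (CEI), and the same table gives the levels of *SCR* and its partners.

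The ground tissue of the root is made of cortex and endodermis, which both derive from the CEI. SHR protein is made in the stele and moves outward into the endodermis, the CEI and the quiescent center (QC), where it meets SCR. Together they switch on target genes, among them the D-type cyclin gene *CYCD6;1*, which drives the division that separates the layers. The BIRD proteins are zinc finger factors of the INDETERMINATE DOMAIN (IDD) family that bind SHR and SCR, hold SHR in the nucleus and shape which targets are switched on.

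The authors deposited 1 FPKM value for each genotype (fragments normalized to transcript length and to the number of mapped reads), and this value stands for the 3 samples together. No spread between samples can therefore be shown, no test between the genotypes was made, and the depth of the libraries is unknown. To each value 0.1 FPKM was added before the log2 ratio of *an3* over Col was taken, and this makes the change of low genes look smaller. A gene was counted as past 1.5-fold when its absolute log2 ratio reached 0.585 and its mean over both genotypes was at least 1 FPKM. Among the 17229 rows that reached this level, 6.95% were past 1.5-fold, 3.89% higher and 3.06% lower in *an3*. The share depended on level, with 21.1% of rows averaging 1 to 2 FPKM, 3.62% at 10 to 30 FPKM and 2.6% at 30 to 100 FPKM. The median log2 ratio over the 17229 rows was -0.0034, so the genotypes were centred alike. Unless another limit is named, all rows below means these 17229 rows. *AN3* itself (AT5G28640) was at 21.5 FPKM in Col and at 2.55 FPKM in *an3*, so the samples labelled *an3* had the lower value.

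None of the 8 regulators was past 1.5-fold, beside 6.95% of all rows. The order of their levels was the same in both genotypes, from *JKD* and *SCR* at the top to *BIB* at the bottom. *NUC* was the member furthest above Col and *BIB* and *SCR* were the members furthest below it, whereas *JKD*, *MGP*, *SCL3* and *SCL23* lay within 0.05 of 0 on the log2 scale. A log2 ratio that close to 0 was found in 17.5% of all rows. The median log2 ratio of the 8 members was -0.02, and the median of their absolute log2 ratios was 0.06, against 0.16 over all rows. The 8 values came to a sum of 97.5 FPKM in Col against 94.7 FPKM in *an3*, a ratio of 0.972, against 1.04 over all rows. As these are whole root tips, fewer cells of a type and less RNA in each cell cannot be told apart, and a difference restricted to a few cells would be diluted by all others.

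**Figure D1:**
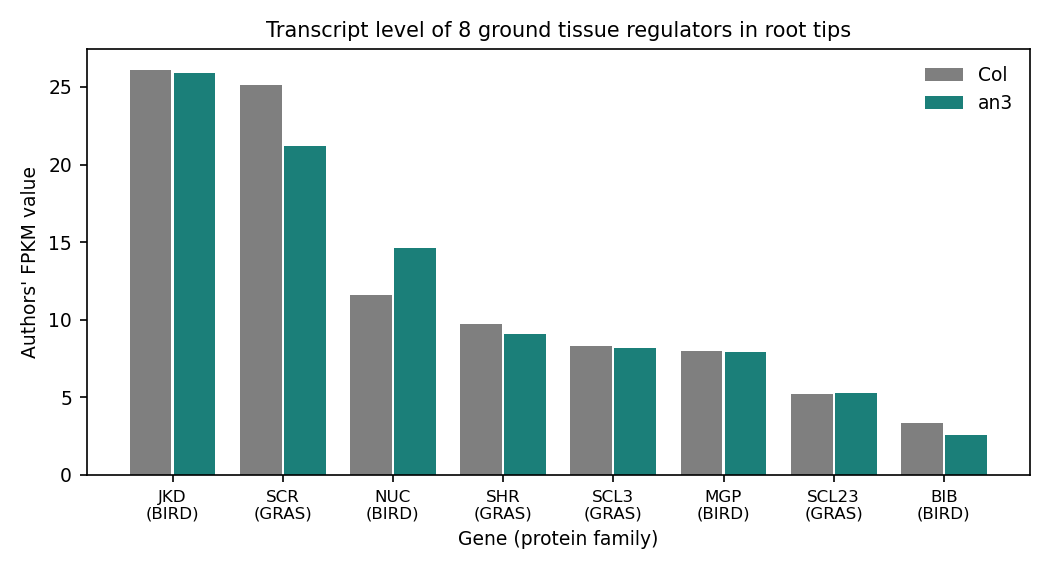
Authors' FPKM value (vertical axis, linear, from 0) of the 8 regulators (horizontal axis, ordered by Col level, with the protein family) in Col (grey) and *an3* (green) root tips. Each bar is the single value deposited for 3 samples together, so there are no error bars. The order of the genes is the same in both genotypes, and the visible gaps between bars are those of *SCR* (25.1 and 21.2 FPKM), *NUC* (11.6 and 14.6 FPKM) and *BIB* (3.37 and 2.58 FPKM).

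*SHR*, the mobile factor made in the stele, was at 9.71 FPKM in Col and at 9.06 FPKM in *an3*. Its log2 ratio was -0.10, and 66.4% of all rows lay at least as far from 0. *SHR* is thus a member of middling level, above 43.2% of these rows in Col, with a difference smaller than that of most of them. *SCR*, which keeps SHR in the nucleus and is needed for the CEI division, was at 25.1 FPKM in Col and at 21.2 FPKM in *an3*. Its *an3* value was lower by a log2 ratio of -0.24, a change of -15.5%, and 32.0% of all rows, or 26.6% of those averaging 10 to 30 FPKM, lay at least as far from 0. *SCR* was nevertheless the most abundant of the 4 GRAS members in both genotypes. The ratio of *SHR* to *SCR* FPKM, whose proteins form a complex, was 0.387 in Col and 0.427 in *an3*, and the move comes mostly from the *SCR* value.

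The remaining GRAS members act downstream of or beside SCR. *SCL3*, a target of SHR and SCR that promotes gibberellin responses in the endodermis, was at 8.30 FPKM in Col and at 8.17 FPKM in *an3* (log2 ratio -0.02). *SCL23*, the closest relative of *SCR*, which acts with it in the endodermis, was at 5.23 FPKM in Col and at 5.26 FPKM in *an3* (log2 ratio 0.01). For both genes nearly all rows averaging at least 1 FPKM lay at least as far from 0 (92.2% for *SCL3* and 97.0% for *SCL23*), so their levels were close to equal. The sign for *SCL23* changed when both genotypes were scaled to equal sums. The level of *SCL23* relative to *SCR* was 0.208 in Col and 0.248 in *an3*. The 4 GRAS members together summed to 48.4 FPKM in Col and to 43.7 FPKM in *an3*, and *SCR* accounts for most of that gap.

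Among the BIRD genes, *JKD*, which is needed to maintain *SCR* expression and confines SHR to the nucleus, was at 26.1 FPKM in Col and at 25.9 FPKM in *an3* (log2 ratio -0.01). It was the most abundant of the 8 regulators, just above *SCR* in Col (ratio 1.04) and further above it in *an3* (ratio 1.22). *MGP*, a target of SHR and SCR whose protein binds both of them and JKD, was at 8.0 FPKM in Col and at 7.94 FPKM in *an3* (log2 ratio -0.01). *JKD* stood to *MGP* in a ratio of 3.27 in Col and 3.26 in *an3*, so the balance between these genes was nearly the same in both genotypes.

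*NUC*, another target of SHR, was at 11.6 FPKM in Col and at 14.6 FPKM in *an3*. Its *an3* value was higher by a log2 ratio of 0.33, and 20.9% of all rows, or 15.6% of those averaging 10 to 30 FPKM, lay at least as far from 0. *NUC* moved away from *MGP*, with a ratio of 1.45 in Col and 1.84 in *an3*, and towards *SCR*, which exceeded it 2.16 times in Col and 1.45 times in *an3*. *BIB*, which acts redundantly with *JKD* in confining SHR, was at 3.37 FPKM in Col and at 2.58 FPKM in *an3*. Its log2 ratio of -0.37 was the largest of the 8 in absolute size, and 17.0% of all rows lay at least as far from 0. *BIB* was also the lowest member, and 25.9% of the rows averaging 2 to 5 FPKM lay at least as far from 0, so among rows of its own level the difference stood out less than among all rows. With *BIB* lower and *JKD* level, the ratio of *JKD* to *BIB* was 7.76 in Col and 10.04 in *an3*.

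Several neighbours in the order of levels were close. *SCL3* exceeded *MGP* by 0.300 FPKM in Col and by 0.231 FPKM in *an3*, and *SHR* exceeded *SCL3* by 1.41 FPKM in Col and by 0.889 FPKM in *an3*. *JKD* and *SCR* differed by 1.002 FPKM in Col and by 4.69 FPKM in *an3*. Without values per sample it cannot be said which of these neighbours differ beyond their spread.

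**Figure D2:**
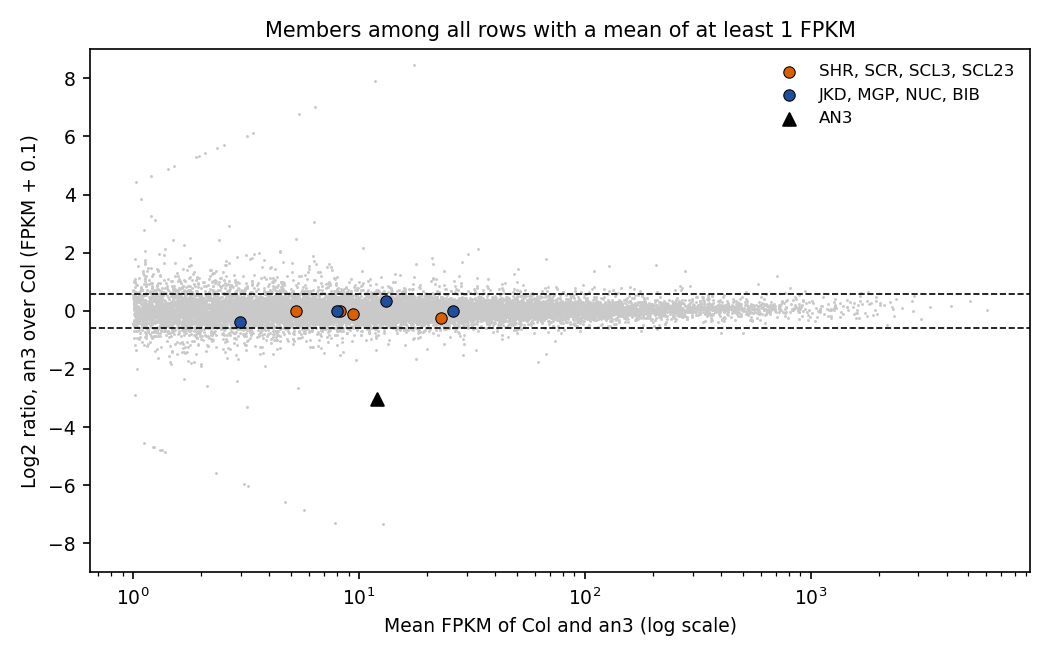
Log2 ratio of *an3* over Col after adding 0.1 FPKM (vertical axis) against the mean FPKM of both genotypes (horizontal axis, log scale) for the 17229 rows that average at least 1 FPKM (grey). GRAS members are orange, BIRD members blue, *AN3* a black triangle, and dashed lines mark 1.5-fold. All 8 members lie between the dashed lines, from -0.37 (*BIB*) to 0.33 (*NUC*), while *AN3* lies at -3.02.

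The members were then set beside the rest of their families. The table holds 16 IDD genes with a row of their own, including the 4 BIRD members. *JKD* held rank 1 in both genotypes and made up 26.0% of their summed FPKM in each. *NUC* held rank 3, with 11.6% of the family sum in Col and 14.7% in *an3*, and *MGP* held rank 5 in both. *BIB* stood at rank 9 in Col and 10 in *an3*. Of the 12 other IDD genes, 10 averaged at least 1 FPKM, and of these 1 was past 1.5-fold and lower, and none was past it and higher. This was *SGR5* (*IDD15*), known for shoot gravitropism, with 1.55 FPKM in Col and 0.930 FPKM in *an3*, a log2 ratio of -0.68 at a level where 21.1% of rows were past 1.5-fold. The most abundant of the others were *IDD1* (14.7 and 15.3 FPKM in Col and *an3*), AT1G14580 (11.6 and 9.31 FPKM) and *IDD5* (6.08 and 5.82 FPKM). The median log2 ratio of the 10 other IDD genes that averaged at least 1 FPKM was -0.05, close to that of all rows.

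Of 30 GRAS genes with a row of their own, *SCR* held rank 6 by FPKM in Col and rank 8 in *an3*. *SHR*, *SCL3* and *SCL23* held ranks 16, 17 and 18 in both genotypes. None of the 23 other GRAS genes that averaged at least 1 FPKM was past 1.5-fold, beside 6.95% of all rows. The most abundant of them were AT3G46600 (41.9 and 58.4 FPKM in Col and *an3*), *HAM1* (41.1 and 38.0 FPKM) and *HAM3* (36.1 and 40.3 FPKM), of which the HAM genes maintain shoot and root meristems. Among the DELLA genes, repressors of gibberellin responses that SCL3 counteracts, *RGA* had 29.9 and 31.5 FPKM and *GAI* had 10.2 and 10.9 FPKM. The log2 ratios of these DELLA genes were 0.07 for *RGA* and 0.09 for *GAI*, and those of the less abundant *RGL1*, *RGL2* and *RGL3* were 0.25, 0.20 and -0.19.

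Genes reported as targets of SHR and SCR went different ways. Only 4 of the 10 listed averaged at least 1 FPKM. Of these, 1 was past 1.5-fold and lower, none was past it and higher, and the median log2 ratio was -0.23. Over all rows, 3.06% were past 1.5-fold and lower and 3.89% were past it and higher. *MYB36*, which switches on the Casparian strip genes of the endodermis, was at 63.1 FPKM in Col and at 61.0 FPKM in *an3*. *BR6OX2*, an enzyme of brassinosteroid synthesis, was at 24.7 FPKM in Col and at 25.9 FPKM in *an3*. Both were near equal between the genotypes, like *MGP* and *SCL3* among the members, whereas the member *NUC* had a log2 ratio of 0.33. The receptor-like kinase gene *RLK* was at 3.79 FPKM in Col and at 2.85 FPKM in *an3*, and the tropinone reductase gene *TRI* was at 5.21 FPKM in Col and at 2.55 FPKM in *an3*, a log2 ratio of -1.0. *TRI* is thus the target past 1.5-fold. Of rows averaging 2 to 5 FPKM, the level of *TRI*, 12.0% were past 1.5-fold and 3.62% lay at least as far from 0 as *TRI*.

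The other targets were too low to be counted. *CYCD6;1*, the cyclin gene of the CEI division, was at 0.349 FPKM in Col and at 0.888 FPKM in *an3*. Its log2 ratio was 1.14 with 0.1 FPKM added and 0.49 with 1 FPKM added, and its mean was under 1 FPKM. *SNE*, an F-box gene of gibberellin signalling, was at 0.652 FPKM in Col and at 1.28 FPKM in *an3*, and its mean was under 1 FPKM as well. *CYCD6;1* and *SNE* were both higher in *an3* while *SHR* and *SCR* were not. However, even among rows averaging 1 to 2 FPKM 21.1% were past 1.5-fold, and the values come without any estimate of their error. The cytokinin oxidase genes *CKX1* (0.135 and 0.0963 FPKM in Col and *an3*) and *CKX3* (0.331 and 0.554 FPKM) were close to 0 FPKM. Their log2 ratios were -0.26 for *CKX1* and 0.60 for *CKX3*, which was thus also higher in *an3*. The microRNA genes *MIR165A* and *MIR166B* were listed at 0 in both genotypes.

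Partners and regulators of the pathway were mostly a little lower in *an3*, by differences of a size common among all rows. Of the 6 that averaged at least 1 FPKM, 1 was past 1.5-fold and higher and none was past it and lower. It was *PLT1*, which maintains the stem cell niche, with 0.944 FPKM in Col and 1.47 FPKM in *an3*, a log2 ratio of 0.59 that just passed and did not pass when both genotypes were scaled to equal sums. At the level of *PLT1*, 1 to 2 FPKM, 21.1% of rows were past 1.5-fold, against 6.95% of all rows. *PLT2*, its close relative, had 1.52 and 1.41 FPKM. *SEU*, a transcriptional co-regulator, was at 17.3 FPKM in Col and at 13.8 FPKM in *an3* (log2 ratio -0.32). *RBR1*, the retinoblastoma homolog that binds SCR, had 7.58 and 6.34 FPKM, and *SIEL*, which binds SHR and aids its movement, had 1.19 and 1.04 FPKM. *PHB*, which is restricted to the inner stele by microRNAs under SHR and SCR, had 3.98 and 3.40 FPKM. *SEU*, *RBR1*, *SIEL* and *PHB* thus all lay below Col by less than 1.5-fold. *WOX5*, the homeobox gene of the QC, had 0.623 and 0.456 FPKM.

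**Figure D3:**
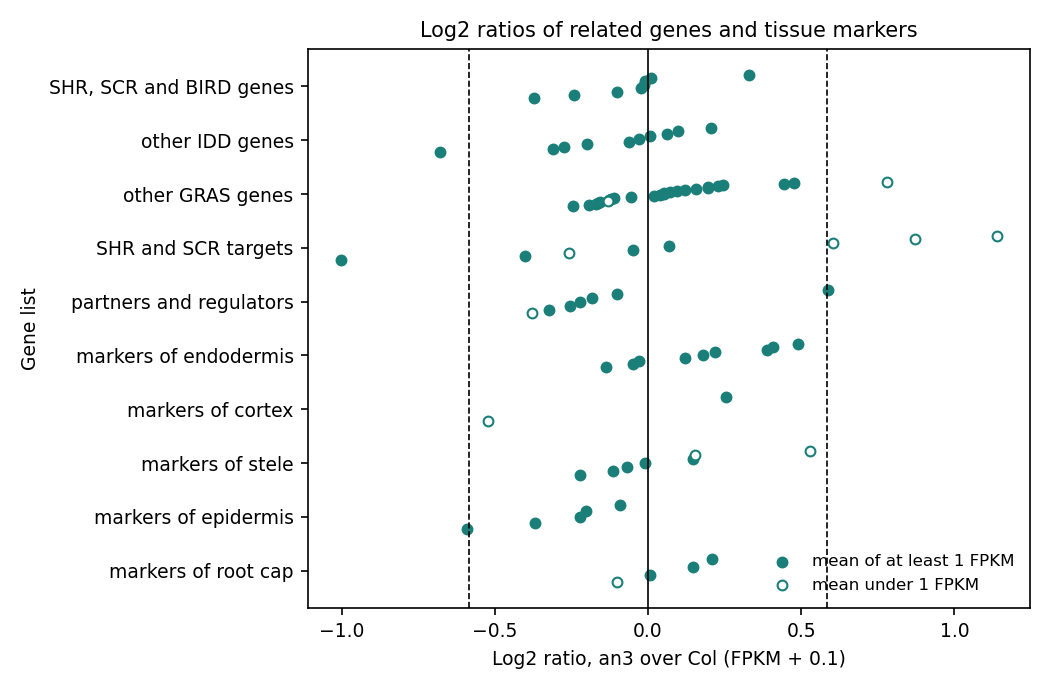
Log2 ratio of *an3* over Col after adding 0.1 FPKM (horizontal axis) for each gene (point) of the lists named on the vertical axis, with dashed lines at 1.5-fold. Filled points average at least 1 FPKM and open points less, and rows listed at 0 in both genotypes or shared with another locus are left out. Markers of the QC and of green shoot are not drawn. The 8 regulators lie within the dashed lines, while *TRI* (-1.0) and *CYCD6;1* (1.14, open) are the outermost of the targets.

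The tissue of the samples bears on all these values. The labels call it meristematic root tissue, yet markers of mature endodermis and of root hairs were abundant. The Casparian strip gene *CASP1* was at 681.4 FPKM in Col and at 891.1 FPKM in *an3*, and the root hair expansin gene *EXPA7* was at 443.7 FPKM in Col and at 385.8 FPKM in *an3*. Transcripts of differentiated endodermis and epidermis were thus part of the samples. The 9 endodermis markers came to 2134 FPKM in Col and to 2630.1 FPKM in *an3*. Of the 9, 6 lay above 0 on the log2 scale, with a median log2 ratio of 0.18. None was past 1.5-fold, beside 6.95% of all rows. *SCR*, which is expressed in the endodermis too, was lower in *an3*, as were 3 of the 9 markers, the lowest at -0.14. The markers furthest from 0 were *CASP1*, *CASP2* and *CASP4*, which were higher, with log2 ratios of 0.39, 0.41 and 0.49. For these, 15.7%, 14.2% and 9.97% of all rows, in that order, lay at least as far from 0. The peroxidase gene *PER64*, with a log2 ratio of 0.22, was the next of the markers.

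Stele markers, which mark the tissue where *SHR* is transcribed, came to 63.2 FPKM in Col and to 59.7 FPKM in *an3* over 7 genes, with a median log2 ratio of -0.07 over the 5 that averaged at least 1 FPKM. Of these 5, *PHB* (-0.22), *ATHB8* (0.15), the cytokinin receptor gene *WOL* (-0.11) and *REV* (-0.07) were the furthest from 0 on the log2 scale. None of the 5 was past 1.5-fold, beside 6.95% of all rows. Of the cortex markers, AT1G09750 was at 26.6 FPKM in Col and at 31.8 FPKM in *an3*, and AT1G62500 had a mean under 1 FPKM. The 5 epidermis markers all lay below Col, from -0.59 for *RHD6*, which was just past 1.5-fold, to -0.09 for *GL2*, with *WER* at -0.37 and *COBL9* at -0.22. The sum of the 5 was 651.1 FPKM in Col against 559.3 FPKM in *an3*. Over all rows, 3.06% were past 1.5-fold and lower. The 3 root cap markers that averaged at least 1 FPKM, *SMB*, *BRN1* and *BRN2*, had log2 ratios of 0.15, 0.21 and 0.01. Of the QC markers, *WOX5* was below 1 FPKM, and *AGL42* was at 1.29 FPKM in Col and at 11.4 FPKM in *an3*. The log2 ratio of *AGL42* was 3.04, past 1.5-fold, and 0.19% of all rows lay at least as far from 0. The green shoot markers *CAB1*, *PSBO1* and *RBCS1A* were all lower in *an3*, with a sum of 59.2 FPKM in Col against 21.7 FPKM in *an3*. Their log2 ratios were -1.64, -1.31 and -1.04, all past 1.5-fold. For these, 0.49%, 0.96% and 1.7% of all rows, in that order, lay at least as far from 0. No marker of these lists was at 0 in both genotypes, and the part of tissue make-up in the values of *SCR*, *NUC* and *BIB* was not tested.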

How the data were processed

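RNA-seq libraries of 3 *an3* and 3 Col samples were read as single ends of 100 bp. Trimming was done with fastq-mcf, alignment with HISAT2 and estimation of expression with Cufflinks, all within TuxNet. Which versions, genome build, annotation and strand setting they used was not given in the sources used here. As deposited, the FPKM values are estimates by the authors, 1 for each genotype, so no SD, interval or test was possible and library depth is unknown. The table's 2 further columns hold the authors' own fold change and adjusted p-value and were not used. Reads shared by similar genes are assigned by estimation, so values of close relatives are uncertain, although no member overlaps another gene of the RefSeq TAIR10.1 annotation. That annotation was used for names and overlaps only (all 8 members and 97.8% of 33493 loci matched), and no coordinates or sequences are printed because the build of the table is unknown.

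Log2 ratios used a pseudocount of 0.1 FPKM and rows averaging at least 1 FPKM, computed in Python 3.11.15 (numpy 2.4.6, pandas 2.3.3, matplotlib 3.10.9). The code for calls at 1.5-fold was checked on simulated data, with 2-fold changes planted in rows averaging above 5 FPKM. That check does not bear on changes near 1.5-fold or on rows of lower level. Rows with several loci (282) were kept in the background and left out of the lists. The text names all members, *AN3*, all listed targets, partners and regulators, the 3 most abundant and all genes past 1.5-fold of the other IDD and GRAS genes, and, from every marker list, up to 4 genes furthest from a log2 ratio of 0. The DELLA genes were added for their link to *SCL3*, and *GL2* as the epidermis marker nearest to 0, after the values were seen. 2 listed markers are not reported here. The members and lists were chosen with earlier results of these data known. Alternatives were pseudocounts of 0.01 and 1 FPKM, rescaling to equal sums or to a median ratio of 1, other limits on level (none, 5 FPKM) and fold (1.25, 2), and rows of 1 locus only.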

Additional observations from a re-analysis of the deposited data

How the results depend on the processing

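None of the 8 members was past 1.5-fold under either pseudocount, either rescaling or either limit on level, nor past 2-fold. At the lowest limit on fold, 1 member counted as higher (*NUC*) and 1 as lower (*BIB*), beside 21.6% of all rows. The share of all rows past 1.5-fold was 4.43% with a pseudocount of 1 FPKM, 13.9% with no filter on low values and 3.91% with a mean of at least 5 FPKM, and 1.92% were past 2-fold. Over both pseudocounts and both rescalings the log2 ratio ran from 0.27 to 0.33 for *NUC*, from -0.30 to -0.23 for *SCR* and from -0.43 to -0.29 for *BIB*, while that of *SCL23*, from -0.05 to 0.01, changed sign. Rescaling to equal sums moved the median of all rows to -0.06 and that of the members to -0.08. At this setting *JKD*, *MGP*, *SCL3* and *SCL23* had log2 ratios of -0.073, -0.071, -0.083 and -0.051, all just outside 0.05 of 0. The ratio of the summed FPKM of the members was then 0.932. With a pseudocount of 1 FPKM, the counts past 1.5-fold of the other IDD genes, of the partners and of the epidermis markers were 0. With no filter on low values, the count of the SHR and SCR targets rose from 1 to 4, beside 13.9% of all rows. No paired analysis was possible because the table holds 1 value for each genotype, and the fits with a replicate left out or with a replicate block were not run for that reason. Depth is unknown, so differences of low genes such as *CYCD6;1* cannot be given a counting error.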
